A study of Homo sapiens with 8 samples.

Results

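The genes described here are 32 members of the hypoxia response and of glycolysis, listed by symbol. Each was read through the probe sets that the array's annotation assigns to that single gene. Of the 32 members, 30 had such a probe set (70 probe sets in all, against 41091 probe sets and 19775 genes in the whole table), and 29 were bright enough to be tested among 12063 genes. CA9, a carbonic anhydrase, and SLC16A3, a lactate exporter, had none and were not analysed here. SLC2A3, a glucose transporter, lay under the brightness filter and was not tested.

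The study asked how transcription responds to a compound, labelled Prima, in cells without p53. Saos-2, an established human osteosarcoma line, was profiled on 8 Affymetrix arrays: untreated (3 arrays, replicates 1, 2 and 3), after 6 h with Prima (3 arrays, replicates 1, 2 and 3) and after 12 h with Prima (2 arrays, replicates 1 and 3). All 3 groups carry the same p53-null background, so no group with p53 stands beside them, and a single cell line stands for osteosarcoma. The labels give no dose, no vehicle and no oxygen level, and untreated cells are the only control. Values are MAS5 signals, a linear brightness per probe set that the authors scaled on each array, and a gene is represented by the brightest of its probe sets.

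When oxygen is plentiful, prolyl hydroxylases mark the transcription factor subunit HIF1A for destruction through the VHL ubiquitin ligase. When oxygen is scarce the subunit accumulates, pairs with ARNT and binds short hypoxia response elements near its target genes. These targets include blood vessel growth factors, glucose transporters and most enzymes of glycolysis, and many tumour lines keep glycolysis high even with oxygen present. HIF1A itself is controlled mainly at the level of the protein, which these arrays do not measure.

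The letters shared by hypoxia response elements were looked up in RefSeq promoter windows (build GRCh38.p14, 250 bases before each annotated start). The motifs searched were ACGTG and GCGTG on either strand, and the palindrome that reads the same on both strands counts as 2 overlapping matches. Windows were found for 28 of the 32 members (49 windows). Of these, 32 windows (65.3%) held at least 1 match, against 43.2% of all 35116 windows, and ACGTG alone stood in 40.8% against 18.5%. The members' windows were richer in G and C, with a median of 68.4% against 58%, and the part of this in the share of matches was not tested. Of the members' windows 9, from 8 genes, held 3 or more matches. The 4 sequences that follow are examples of these, picked by hand: 2 glycolytic enzymes with several matches (LDHA and PGK1), and HK2 and ANKRD37, which are described on every array below. A second HK2 window, with 6 matches, and those of BNIP3 (6), ALDOC (5), PFKP (3) and SLC16A3 (3) are not shown. Capitals mark the matches, and all 4 genes lie on the plus strand.
ANKRD37: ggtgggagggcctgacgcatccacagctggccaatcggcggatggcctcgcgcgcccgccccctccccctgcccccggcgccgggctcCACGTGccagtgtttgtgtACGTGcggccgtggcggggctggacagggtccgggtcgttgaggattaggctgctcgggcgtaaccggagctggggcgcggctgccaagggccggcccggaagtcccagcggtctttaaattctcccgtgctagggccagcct
HK2: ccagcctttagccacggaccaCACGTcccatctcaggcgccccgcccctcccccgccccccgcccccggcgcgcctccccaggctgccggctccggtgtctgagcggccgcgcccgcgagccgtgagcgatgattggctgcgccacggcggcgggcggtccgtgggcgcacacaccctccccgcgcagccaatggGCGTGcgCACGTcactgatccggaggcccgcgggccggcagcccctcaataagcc
LDHA: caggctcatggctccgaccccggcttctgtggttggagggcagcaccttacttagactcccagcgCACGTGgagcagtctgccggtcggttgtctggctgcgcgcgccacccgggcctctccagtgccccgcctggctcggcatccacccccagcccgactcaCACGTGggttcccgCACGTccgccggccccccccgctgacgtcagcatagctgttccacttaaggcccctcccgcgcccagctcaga
PGK1: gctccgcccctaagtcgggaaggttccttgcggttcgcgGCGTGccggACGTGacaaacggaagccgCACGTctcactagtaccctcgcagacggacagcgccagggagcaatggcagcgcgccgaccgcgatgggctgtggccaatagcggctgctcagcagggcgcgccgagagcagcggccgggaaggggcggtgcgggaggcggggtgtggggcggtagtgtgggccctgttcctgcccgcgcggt
ANKRD37 was read at chr4:185396591-185396840 (3 matches) and HK2 at chr2:74833877-74834126 (3 matches). LDHA was read at chr11:18394313-18394562 (5 matches) and PGK1 at chrX:78103998-78104247 (3 matches). A match is a run of letters and not a measured binding site.

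The arrays were not alike. The replicate 2 arrays, which were analysed here for 6 h and for untreated cells but not for 12 h, had median signals of 47.5 and 50.9, whereas the rest had 14.2 to 24.95. RNA quality, read as the 3′ over 5′ signal of ACTB, gave ratios of 2.29 for 12 h replicate 1, 1.73 for 6 h replicate 1 and 1.125 to 1.38 for the rest. Of 9 bone-forming cell markers 8 had a probe set and all 8 passed the filter. COL1A1, SPARC and RUNX2 had median signals of 3648, 2118 and 1915. ALPL, SP7, COL1A2, IBSP and SPP1 were much dimmer, at 139.6, 100.9, 65.4, 54.0 and 26.2. Signals of all 8 summed to 6767 to 8359 in untreated cells, 6258 to 9146 after 6 h and 8327 to 8539 after 12 h. Of 10 markers of epithelial, endothelial and blood cells 4 passed the filter: EPCAM, PECAM1, PTPRC and HBB, with median signals of 186, 35.6, 22.7 and 19.9. CDH1, KRT19, CDH5, KDR, CD3E and CD14 did not. Fewer cells of a type and less RNA per cell cannot be told apart in such bulk RNA.

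After 6 h with Prima no hypoxia or glycolysis gene passed the test against untreated cells, given the spread between arrays. Limma called 0 of the 29 tested members at an adjusted p under 0.05, against 0.0% of all 12063 tested genes (79 genes, none of them a member, had an unadjusted p under 0.05, and the smallest adjusted p was 0.9999). The members' log2 differences had a median of 0.04, against 0.02 for all tested genes, and ran from -0.33 in ANKRD37 to 0.53 in ENO2. Of the members 18 lay above 0 and 11 below. No member had 6 h arrays wholly above or wholly below the untreated ones, against 2.03% of all tested genes wholly above and 1.51% wholly below. Every same-numbered pair was higher at 6 h for HK2 and LDHA (13.6% of all genes) and lower for ALDOA and P4HA1 (10.4% of all genes).

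After 12 h with Prima no member passed the test against untreated cells either. Limma called 0 of 29 members, against 0.0% of all genes (74 genes, no member, at an unadjusted p under 0.05, smallest adjusted p 0.9999). The median log2 difference from untreated cells was 0.04 in the members and 0.08 in all tested genes, with a range of members from -1.32 in CA12 to 0.63 in NDRG1. NDRG1, HK1, PFKP and ANKRD37 had both 12 h arrays above every untreated array, 4 of 29 members, against 9.6% of all genes. BNIP3 had both below, 1 of 29, against 4.89%. In 13 members both same-numbered pairs were higher at 12 h (34% of all genes) and in 5 both were lower (25% of all genes). With 2 arrays at 12 h such patterns are common over the whole table, and the members' counts were not tested against these shares.

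Between 12 h and 6 h limma again called 0 of 29 members, against 0.0% of all genes (88 genes, no member, at an unadjusted p under 0.05, smallest adjusted p 1.00). The median log2 difference was 0.06 in the members and 0.06 in all genes, from -1.65 in CA12 to 0.73 in ANKRD37. VEGFA, EGLN1 and PFKP had both 12 h arrays above every 6 h array, 3 of 29 members, against 7.1% of all genes. CA12 and PFKL had both below, 2 of 29, against 4.5%. Both same-numbered pairs were higher in 8 members (26% of all genes) and lower in 7 (23.6% of all genes). The 3 comparisons share their arrays, so the values of one are not independent of the others.

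The size of a change that these arrays leave possible differs by gene. A 95% limma interval lay wholly within a 2-fold change either way for 20 of 29 members at 6 h against untreated cells, for 19 at 12 h against untreated cells and for 17 at 12 h against 6 h. Over all tested genes these shares were 49.8%, 39.6% and 39.7%. The intervals of CA12, EGLN3, PFKFB3, PFKFB4, ALDOC, ENO2 and ANKRD37 crossed that bound in all 3 comparisons, so a larger change was left possible. With the replicate number as a block, 26, 23 and 22 of 29 members lay within it, in the order of comparisons given above. Over all tested genes these shares were 62.8%, 57.7% and 55.9%. Of the genes just named, CA12 and ENO2 had intervals that still crossed the bound in all 3 comparisons. For LDHA at 6 h, an enzyme whose interval is among the narrow ones, the log2 difference of 0.09 had an interval of -0.36 to 0.54, and of -0.08 to 0.27 with the block. For CA12 at 12 h the interval ran from -3.77 to 1.13. The medians of the members depended on scaling: quantile normalization gave -0.05 for 12 h against untreated cells and -0.04 for 12 h against 6 h. Centring each array on its median moved the median of all tested genes to 0.66 and 0.65 and that of the members to 0.62 and 0.65 in those comparisons.

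**Figure D1:**
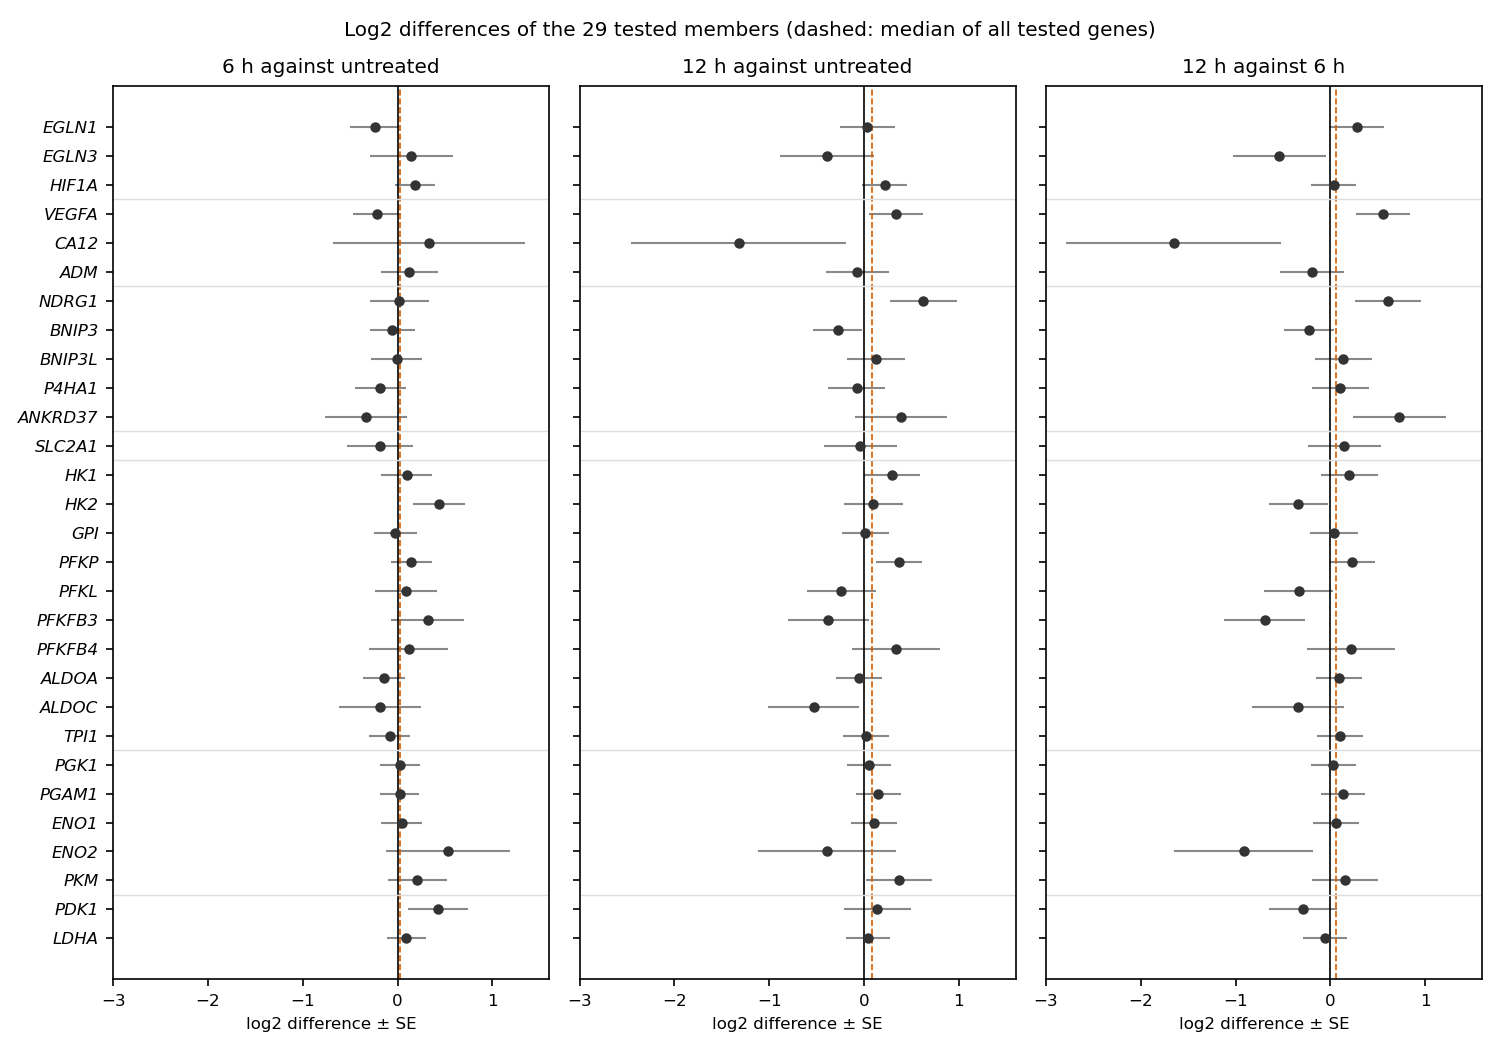
Log2 difference (x axis) of each of the 29 tested members (rows, ordered by role, with grey lines between roles) in the 3 comparisons. Points are limma estimates, bars are 1 SE and the dashed line is the median of all tested genes; most bars cross 0, CA12 has the widest bars, and the members' medians of 0.04, 0.04 and 0.06 lie near the dashed lines.

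Among the genes that control HIF, HIF1A encodes the oxygen-sensitive subunit. Its signal was 2739, 2231 and 2935 on untreated replicates 1, 2 and 3, 3327, 2838 and 2787 on the 6 h replicates, and 3278 and 2829 on 12 h replicates 1 and 3. The groups overlapped at both times, with untreated replicate 2 the lowest array and 6 h replicate 1 the highest. The log2 difference from untreated cells was 0.18 ± 0.21 (SE) at 6 h and 0.22 ± 0.23 at 12 h.

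EGLN1, the main prolyl hydroxylase that marks HIF1A, stood at 274, 248 and 187 in untreated cells, 175, 205 and 214 after 6 h, and 245 and 233 after 12 h. Both 12 h arrays exceeded every 6 h array, whereas the untreated arrays spanned them. The log2 difference was 0.28 ± 0.29 (SE) for 12 h against 6 h and -0.24 ± 0.26 for 6 h against untreated cells, neither past the test. None of the 3 other EGLN1 probe sets had the sign of the brightest for 12 h against 6 h. EGLN3, a prolyl hydroxylase that is itself a HIF target, averaged 78.4 ± 24.3 (SD, n = 3) in untreated cells, 89.6 ± 35.8 (n = 3) after 6 h and 59.9 ± 22.4 (n = 2) after 12 h.

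Of the secreted and surface targets, VEGFA, the growth factor for blood vessels, is read by 4 probe sets. On the brightest, its signal was 801, 527 and 595 on untreated replicates 1, 2 and 3, 546, 444 and 661 on the 6 h replicates, and 888 and 715 on 12 h replicates 1 and 3. Both 12 h arrays lay above all 6 h arrays, but untreated replicate 1 lay between them. The log2 difference was 0.55 ± 0.29 (SE) for 12 h against 6 h (limma unadjusted p = 0.076, the smallest of any member, adjusted p 1.00), 0.34 ± 0.29 for 12 h against untreated cells and -0.22 ± 0.26 for 6 h against untreated cells. The difference for 12 h against 6 h came mostly from number 1, at 0.70 between the replicate 1 arrays and 0.11 between the replicate 3 arrays. Without the replicate 2 arrays it was 0.41.

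The other VEGFA probe sets did not repeat the pattern in full. For 6 h against untreated cells all 4 had log2 differences below 0, from -0.23 to -0.10. For 12 h against untreated cells the other 3 had -0.32, 0.01 and 0.09, and for 12 h against 6 h they had -0.22, 0.24 and 0.21. The probe set that went the other way read 59.3, 133 and 72.1 in untreated cells, 52.0, 116 and 77.3 after 6 h, and 51.2 and 85.9 after 12 h. On it the replicate 2 arrays were the highest of each group that has them, whereas on the brightest probe set they were the lowest. Its values over the 3 times ran from 51.2 to 59.3 for number 1 and from 72.1 to 85.9 for number 3.

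**Figure D2:**
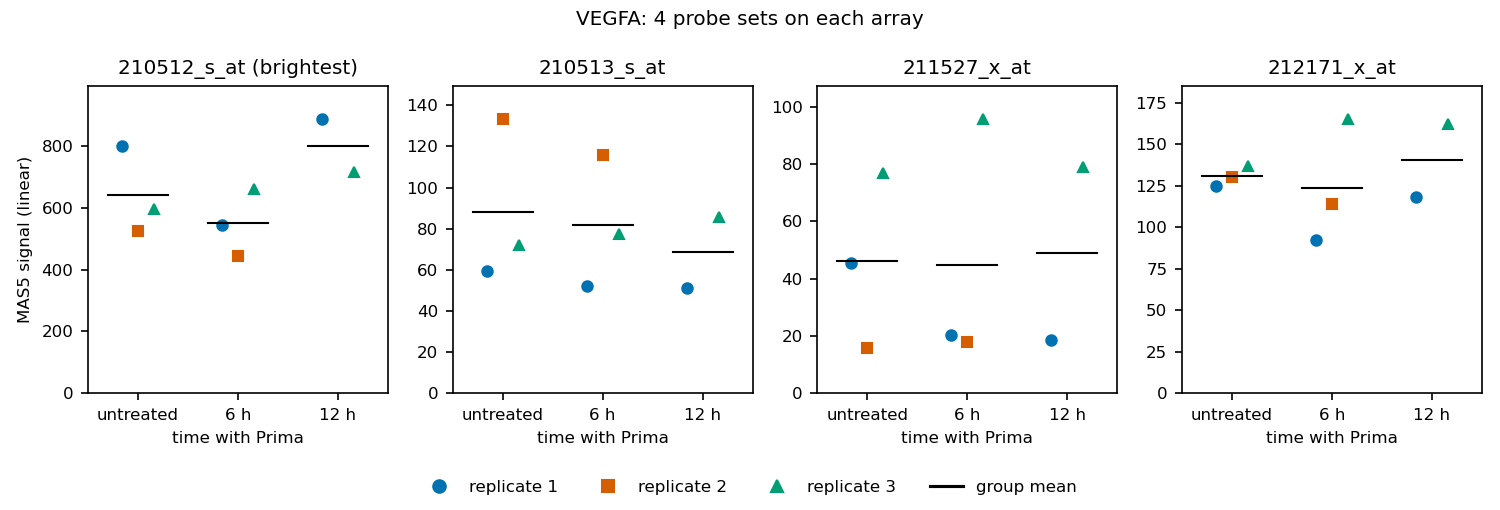
MAS5 signal (y axis, linear, own scale per panel) of the 4 VEGFA probe sets against time with Prima. Points are arrays, coloured by replicate number, and lines are group means; on the brightest probe set both 12 h arrays (888 and 715) lie above the 6 h arrays (444 to 661), and on the other 3 the groups overlap.

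CA12, a membrane carbonic anhydrase that handles acid outside the cell, had signals of 22.1, 69.4 and 10.3 in untreated cells, 21.7, 94.1 and 15.5 after 6 h, and 7.41 and 13.7 after 12 h. Its highest values in both groups that have a replicate 2 array are on that array, and no 12 h array of that number was analysed here. The log2 difference for 12 h against 6 h was -1.65 ± 1.13 (SE), the lowest of any member, and -0.87 without the replicate 2 arrays. Against untreated cells it was -1.32 ± 1.13 at 12 h, and -0.59 without those arrays. Of the 6 other CA12 probe sets 5 were also below 0 for 12 h against 6 h, and 4 for 12 h against untreated cells. Over all CA12 probe sets the values ran from -3.10 to 0.99 and from -2.18 to 0.80. The other probe sets were dim, with signals of 1.02 to 116, so these differences are uncertain. ADM, which encodes the vasodilator peptide adrenomedullin, averaged 135 ± 19.0 (SD, n = 3) in untreated cells, 148 ± 29.9 (n = 3) after 6 h and 130.2 ± 36.3 (n = 2) after 12 h.

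NDRG1, a stress-responsive gene used as a marker of hypoxia, had the smallest unadjusted p of the members for 12 h against untreated cells. Its signal was 447, 291 and 436 in untreated cells, 265, 365 and 607 after 6 h, and 597 and 591 after 12 h. Both 12 h arrays lay above every untreated array, and 6 h replicate 3 lay above both of them. The log2 difference was 0.63 ± 0.35 (SE) for 12 h against untreated cells (limma unadjusted p = 0.096, adjusted p 0.9999), with 0.42 between the replicate 1 arrays and 0.44 between the replicate 3 arrays. Without the replicate 2 arrays it was 0.43. At 6 h the pairs disagreed, with -0.75, 0.33 and 0.48 for numbers 1, 2 and 3.

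ANKRD37, a small ankyrin repeat protein known as a HIF target, stood at 86.7, 54.5 and 88.4 in untreated cells, 73.0, 31.9 and 89.3 after 6 h, and 89.1 and 108 after 12 h. The lowest value in both groups that have a replicate 2 array is on that array. The log2 difference for 12 h against 6 h was 0.73 ± 0.49 (SE), the highest of any member, and 0.28 without the replicate 2 arrays. For 12 h against untreated cells it was 0.39. The other ANKRD37 probe set, which lay under the brightness filter, had -0.60 for 12 h against untreated cells and 1.49 for 12 h against 6 h. In the promoter window shown above this gene has 3 matches to the element's letters, and a link to its signal was not tested.

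BNIP3, a mitochondrial protein that promotes removal of mitochondria, was the member whose 12 h arrays both lay below the untreated ones. It read 608, 805 and 724 in untreated cells, 782, 717 and 563 after 6 h, and 568 and 600.1 after 12 h. The log2 difference for 12 h against untreated cells was -0.28 ± 0.26 (SE), its other probe set was also below 0, at -0.45, and centring each array on its median turned it to 0.30. BNIP3L, its relative with the same task, averaged 394 ± 51.0 (SD, n = 3) in untreated cells, 400.0 ± 116 (n = 3) after 6 h and 432 ± 83.9 (n = 2) after 12 h. P4HA1, a collagen prolyl hydroxylase subunit, had log2 differences from untreated cells of -0.18 ± 0.27 at 6 h and -0.07 ± 0.30 at 12 h.

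Glucose enters through transporters. SLC2A1, the widespread glucose transporter GLUT1, averaged 187 ± 30.2 (SD, n = 3) in untreated cells, 175 ± 75.9 (n = 3) after 6 h and 181 ± 25.3 (n = 2) after 12 h. Its lowest array was 6 h replicate 1 at 96.4, and its highest was 6 h replicate 2 at 248, so both extremes fell in the same group. SLC2A3, the transporter GLUT3, had signals of 9.39 to 38.96 over the 8 arrays and was not tested.

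In the upper part of glycolysis, where glucose is phosphorylated and split, 0 of 10 tested members passed in any comparison. HK2, the inducible hexokinase that traps glucose in the cell, had the smallest unadjusted p of the members at 6 h. It read 346, 233 and 279.6 on untreated replicates 1, 2 and 3, 474, 414 and 284 on the 6 h replicates, and 336 and 272 on 12 h replicates 1 and 3. All 3 pairs were higher at 6 h, by 0.46, 0.83 and 0.02 on the log2 scale, although the groups overlap. The log2 difference from untreated cells was 0.44 ± 0.28 (SE) at 6 h (limma unadjusted p = 0.142, adjusted p 0.9999) and 0.10 ± 0.31 at 12 h. Without the replicate 2 arrays the difference at 6 h was 0.24. At 12 h both pairs had a log2 difference of -0.04. Neither of the 2 other HK2 probe sets had the sign of the brightest at 6 h.

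HK1, the hexokinase found in most tissues, stood at 274, 418 and 375 in untreated cells, 434, 288 and 418 after 6 h, and 427 and 433 after 12 h. Both 12 h arrays lay above the untreated ones by a small margin, with untreated replicate 2 at 418. Its log2 difference at 12 h was 0.30 ± 0.30 (SE), and 0.43 without the replicate 2 arrays. PFKP, the platelet form of phosphofructokinase, which commits sugar to glycolysis, read 685, 793 and 736 in untreated cells, 872, 711 and 874 after 6 h, and 998 and 912 after 12 h. Its 12 h arrays lay above all others of both groups. The log2 difference for 12 h against untreated cells was 0.37 ± 0.24 (SE, limma unadjusted p = 0.149) on this probe set and -1.99 on its other one, so the mean over both was -0.81. That other probe set lay under the brightness filter, with signals of 7.49 to 77.8 over the 8 arrays. Its highest values at 6 h and in untreated cells were on the replicate 2 arrays.

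PFKL, the liver form of phosphofructokinase, stood at 114, 209 and 102 in untreated cells, 167, 133 and 132 after 6 h, and 119 and 109 after 12 h. Both 12 h arrays lay below every 6 h array and inside the untreated range. The log2 difference for 12 h against 6 h was -0.33 ± 0.36 (SE). On the other PFKL probe set it was 0.19, and the groups overlapped. For 12 h against untreated cells the values were -0.24 on the brightest probe set and 0.27 on the other.

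PFKFB3 makes the sugar phosphate that activates phosphofructokinase. Its signal was 191, 204 and 180.4 in untreated cells, 433, 236 and 132 after 6 h, and 187 and 116 after 12 h. The 6 h arrays spread over both sides of the untreated ones, with 6 h replicate 1 far above all others. The log2 difference for 12 h against 6 h was -0.69 ± 0.43 (SE), with -1.21 between the replicate 1 arrays and -0.19 between the replicate 3 arrays. PFKFB4, a second enzyme of this kind, averaged 55.6 ± 10.7 (SD, n = 3) in untreated cells, 62.2 ± 23.4 (n = 3) after 6 h and 70.0 ± 14.0 (n = 2) after 12 h.

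The other 4 upper members were GPI, ALDOA, ALDOC and TPI1, which rearrange and split the hexose. GPI averaged 1603 ± 317 (SD, n = 3) in untreated cells, 1565 ± 213 (n = 3) after 6 h and 1603 ± 98.1 (n = 2) after 12 h. ALDOA averaged 2296 ± 379 in untreated cells, 2078 ± 308 after 6 h and 2198 ± 72.4 after 12 h, and TPI1 averaged 2013 ± 324, 1892 ± 212 and 2032 ± 232 in the same order. For each of these 3 genes both treated means differed from the untreated mean by less than the SD of the untreated arrays. ALDOC, the aldolase typical of brain, averaged 97.6 ± 57.8 in untreated cells, 79.4 ± 23.3 after 6 h and 61.1 ± 8.31 after 12 h. Untreated replicate 2 stood at 164, and the other untreated arrays at 64.8 and 63.6.

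**Figure D3:**
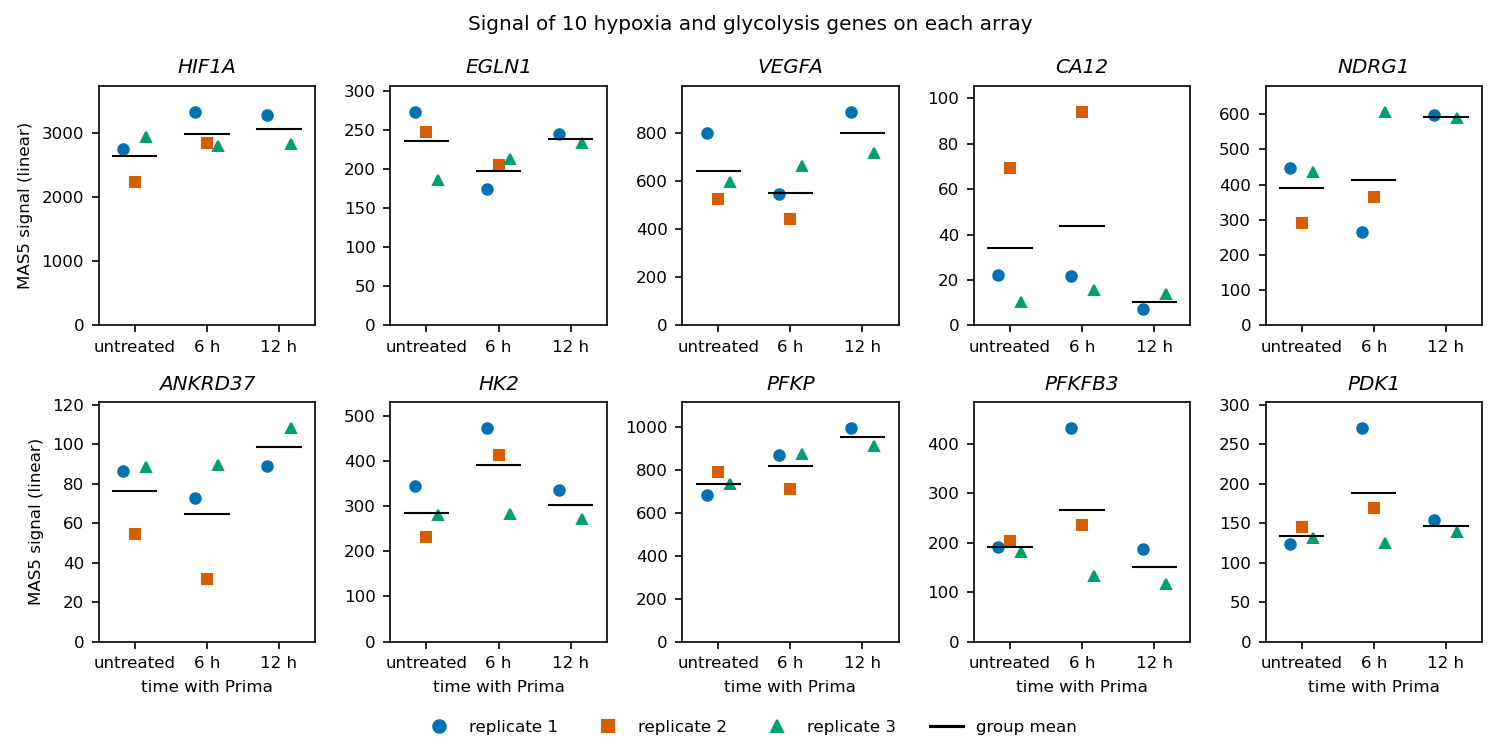
MAS5 signal (y axis, linear, from 0, own scale per panel) of 10 members against time with Prima. Points are arrays, coloured by replicate number, and lines are group means; 6 h replicate 1 is the top point for HK2 (474), PFKFB3 (433) and PDK1 (271), and the 12 h arrays lie above the 6 h arrays for VEGFA, EGLN1 and PFKP.

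The lower part of glycolysis, which yields ATP and pyruvate, held 5 tested members, and 0 passed in any comparison. PGK1, the kinase of the first step that yields ATP, averaged 2897 ± 346 (SD, n = 3) in untreated cells, 2947 ± 421 (n = 3) after 6 h and 2997 ± 256 (n = 2) after 12 h. PGAM1, the mutase, averaged 2159 ± 239, 2189 ± 228 and 2397 ± 236 in the same order. ENO1, the main enolase, averaged 5531 ± 819, 5715 ± 1072 and 5928 ± 689. The ratios of the 12 h mean to the untreated mean were 1.03, 1.11 and 1.07 for PGK1, PGAM1 and ENO1. On the brightest probe sets the limma intervals of all 3 genes lay within the 2-fold bound in all 3 comparisons. Other probe sets were not always as close. For 12 h against untreated cells none of the 3 other ENO1 probe sets had the sign of the brightest, the lowest at -1.19. The PGK1 probe sets ran from -1.41 to 0.31 there.

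ENO2, the enolase typical of neurons, stood at 16.9, 68.8 and 43.6 in untreated cells, 81.8, 60.8 and 30.7 after 6 h, and 19.6 and 40.9 after 12 h. It had the highest log2 difference of the members at 6 h, 0.53 ± 0.65 (SE), of which the pair numbered 1 gave 2.27 and the pairs numbered 2 and 3 gave -0.18 and -0.51. PKM, pyruvate kinase, read 459.9, 729.6 and 559.8 in untreated cells, 728, 412 and 969 after 6 h, and 769 and 709 after 12 h. Its log2 difference from untreated cells was 0.21 ± 0.31 (SE) at 6 h and 0.37 ± 0.35 at 12 h. Without the replicate 2 arrays these were 0.73 and 0.54, still not past the test across all genes. The other PKM probe set, with signals of 18.3 to 73.8, went the other way. Over all arrays it had -0.33 at 6 h and -0.17 at 12 h.

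At the fate of pyruvate stand LDHA, which turns pyruvate into lactate, and PDK1, the kinase that keeps pyruvate out of mitochondria. LDHA averaged 4424 ± 661 (SD, n = 3) in untreated cells, 4702 ± 522 (n = 3) after 6 h and 4520 ± 444 (n = 2) after 12 h. All 3 LDHA pairs were higher at 6 h, by 0.15, 0.10 and 0.03 on the log2 scale. PDK1 read 123, 145 and 132 in untreated cells, 271, 169.8 and 125 after 6 h, and 154 and 139 after 12 h. The groups overlap at 6 h because 6 h replicate 3 lies among the untreated arrays. The log2 difference of PDK1 at 6 h was 0.43 ± 0.32 (SE, limma unadjusted p = 0.200), with 1.13, 0.22 and -0.08 for numbers 1, 2 and 3, and it was 0.14 ± 0.35 at 12 h. On the 2 other PDK1 probe sets it was 0.51 and 0.28 at 6 h but -0.19 and -2.49 at 12 h. Both were dim, with signals of 2.58 to 70.6 over the arrays.

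A single array carried many of the high values. 6 h replicate 1 was the highest of the 8 arrays for 10 of the 29 tested members, against 19.3% of all tested genes, and these were ADM, BNIP3L, PDK1, EGLN3, HIF1A, HK1, HK2, PFKFB3, PFKFB4 and ENO2. It was the lowest for 4 members, NDRG1, EGLN1, SLC2A1 and ALDOA, against 16.01% of all genes. This array had an ACTB ratio of 1.73 and a GAPDH ratio of 0.978, where GAPDH ran from 0.927 to 1.038 over the 8 arrays. The array with the ACTB ratio of 2.29, 12 h replicate 1, was the highest for 2 of the 29 members, against 12.8% of all tested genes. It was the lowest for 4 members, against 6.10% of all genes. The part of RNA quality in the members' values was not tested. The median log2 difference of the members between same-numbered arrays at 6 h was 0.15 for number 1, -0.12 for number 2 and 0.02 for number 3. At 12 h against untreated cells it was 0.10 for number 1 and 0.08 for number 3.

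**Figure D4:**
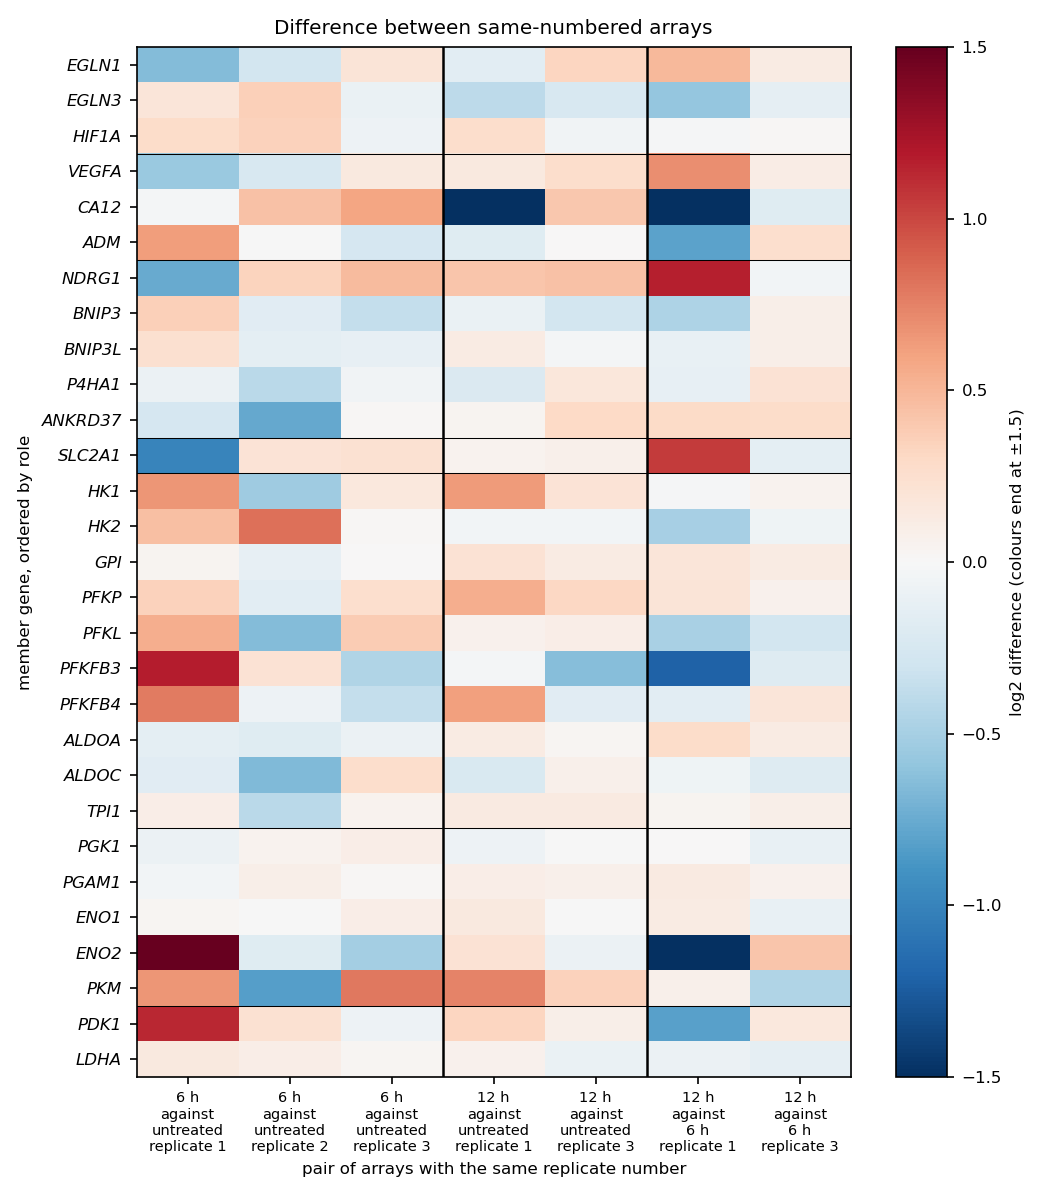
Log2 difference (colour, ending at 1.5 either way) between arrays of the same replicate number for the 29 tested members (rows, by role) in 7 pairs (columns). The column for 6 h against untreated, replicate 1, holds values of 2.27 for ENO2, 1.18 for PFKFB3 and 1.13 for PDK1, and the other columns for 6 h against untreated do not repeat them. NDRG1 has 1.17 for 12 h against 6 h, replicate 1.

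Probe sets of the same gene often disagreed. For the 19 tested members with more than 1 probe set, 24 of 38 further probe sets had the sign of the brightest for 6 h against untreated cells, 17 of 38 for 12 h against untreated cells and 21 of 38 for 12 h against 6 h. All further probe sets shared the sign in 9, 5 and 7 genes, and none did in 6, 10 and 7 genes. Of the members' 70 probe sets 54 lay above the brightness filter, so some of the further probe sets were dim.

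Other genes of these pathways were set beside the members, 71 in number, of which 66 had a probe set and 47 were tested. Limma called 0 of them in each comparison, and 0 had an unadjusted p under 0.05. Their median log2 difference was 0.06 for 6 h against untreated cells, 0.10 for 12 h against untreated cells and 0.07 for 12 h against 6 h. Among HIF partners and regulators, ARNT, the partner subunit of HIF1A, averaged 262 ± 84.1 (SD, n = 3) in untreated cells, 270.1 ± 73.2 (n = 3) after 6 h and 360.5 ± 19.8 (n = 2) after 12 h. VHL, which tags HIF1A for destruction, averaged 72.7 ± 15.1, 105 ± 53.3 and 65.6 ± 26.2 in the same order. HIF1AN, which blocks the activity of HIF1A by hydroxylation, had a log2 difference of -0.16 ± 0.33 (SE) at 6 h.

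Of the further hypoxia targets, BHLHE41, a transcriptional repressor, came closest to an unadjusted p of 0.05 at 6 h. It read 23.5, 62.7 and 48.3 in untreated cells, 178, 98.7 and 45.4 after 6 h, and 54.5 and 48.95 after 12 h, a log2 difference at 6 h of 1.16 ± 0.54 (SE, limma unadjusted p = 0.050). STC2, a secreted glycoprotein, read 112, 157 and 96.1 in untreated cells, 706, 169 and 109 after 6 h, and 178 and 136 after 12 h, 0.98 ± 0.53. For both genes 6 h replicate 1 was the highest array. PLOD1, a collagen lysyl hydroxylase, had log2 differences of 0.59 ± 0.29 (SE, limma unadjusted p = 0.059) and WSB1, a ubiquitin ligase subunit, of 0.46 ± 0.30 for 12 h against untreated cells. KDM3A, a histone demethylase, and PLOD2, a collagen lysyl hydroxylase, had 0.49 ± 0.28 and 0.42 ± 0.27 for 12 h against 6 h.

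Of the other glycolysis genes, TIGAR, a phosphatase that lowers glycolytic flux, and LDHB, a lactate dehydrogenase subunit, had log2 differences of 0.28 ± 0.34 (SE) and 0.17 ± 0.23 at 6 h. ENO3, the muscle enolase, and LDHB had -1.18 ± 1.07 and 0.16 ± 0.26 for 12 h against untreated cells. PFKM, the muscle phosphofructokinase, and PFKFB2, a relative of PFKFB3, had -0.30 ± 0.30 and -1.03 ± 1.15 for 12 h against 6 h. Among the genes for the entry of pyruvate into mitochondria, DLAT, a subunit of pyruvate dehydrogenase, had -0.19 ± 0.22 at 6 h. MPC1, a subunit of the pyruvate carrier, had -0.19 ± 0.30 at 6 h and 0.42 ± 0.33 for 12 h against 6 h. PDP1, the phosphatase that activates pyruvate dehydrogenase, had 0.50 ± 0.32 for 12 h against untreated cells, and PDK2, a kinase that opposes it, had -0.93 ± 1.14 there and -1.25 ± 1.14 for 12 h against 6 h. None of these values passed the test across all genes.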

How the data were processed

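RNA from 8 samples was hybridised to 1 array each. Per the submitters' processing notes the authors made the deposited intensity values with MAS5; their scale is linear. The version and settings of MAS5 are not given in the sources used here. Groups and replicate numbers came from the labels. Nothing says that replicates were separate cultures: a p-value then covers only the spread of these samples, possibly technical. Precision is limited by how many arrays there are.

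Of 54675 probe sets 62 were controls. The annotation gave 1 symbol for 41091 probe sets, several for 1801 and none for 11721. Signals under the 10th percentile (2.385) were raised to it before log2, which understates differences in dim genes. A gene was its brightest probe set, tested if its mean log2 signal exceeded 4.216, the median of all probe sets. Limma 3.58.1 in R 4.3.3 (lmFit, eBayes with trend, 3 groups in 1 fit, two-sided) was adjusted by Benjamini-Hochberg over 12063 genes, threshold 0.05. The script was tested on simulated data.

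The members and lists were chosen with earlier results of these data known. VEGFA, HIF1A and, in each comparison, the 4 tested members with the smallest unadjusted p are given on every array. So are members whose groups do not overlap, and, chosen after their values were seen, ENO2, PKM, BHLHE41, STC2 and a further VEGFA probe set. Of the other pathway genes the 2 with the smallest p per list and comparison are named. Members may share sequence with relatives or pseudogenes, so single values are uncertain.

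Whether replicate numbers pair the samples was checked from each array's deviations from its group mean. Their correlation over genes was 0.108 to 0.637 in the 7 pairs with equal numbers, and -0.576 to 0.333 in 14 further pairs. For 12 h replicate 1 it was 0.159 and 0.108 with 6 h and untreated replicate 1, but 0.295 and 0.333 with their replicate 2. Deviations cancel within a group, which lowers the correlations of unequal numbers, so the check cannot settle the pairing. Same-numbered differences and the replicate block took equal numbers as pairs, whereas the main limma fit used group means only. Alternatives were quantile normalization, centring, other floors, filters and probe set rules, no variance trend, the groups compared alone, the replicate block, array weights, no replicate 2 arrays, and each array left out.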

Additional observations from a re-analysis of the deposited data

Results flagged for a closer look

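For 2 members every same-numbered pair went one way at 6 h and the other way at 12 h, each against untreated cells. HK2 had log2 differences of 0.46, 0.83 and 0.02 at 6 h for numbers 1, 2 and 3, and of -0.04 and -0.04 at 12 h for numbers 1 and 3. For 12 h against 6 h its limma log2 difference was -0.34 ± 0.31 (SE), not past the test. ALDOA had -0.15, -0.18 and -0.09 at 6 h and 0.12 and 0.03 at 12 h, and its limma log2 difference for 12 h against 6 h was 0.091 ± 0.24 (SE), not past the test. The limma log2 differences from untreated cells, which include untreated replicate 2, kept the same sign at both times. They were 0.44 at 6 h and 0.10 at 12 h for HK2, and -0.14 and -0.05 for ALDOA. Every ALDOA probe set was below 0 at 12 h, from -0.27 to -0.05. The opposite directions of the pairs were not tested in themselves, and the untreated arrays are shared by both times.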

How the results depend on the processing

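The count of called genes was 0, over all genes and over the members, under all 23 settings of each comparison, the replicate block included, so the block changed no call. Over the settings 45 to 581 genes had an unadjusted p under 0.05 for 6 h against untreated cells, 34 to 634 for 12 h against untreated cells and 33 to 599 for 12 h against 6 h, and the smallest adjusted p was 0.751, 0.296 and 0.451. At most 1, 3 and 3 members were among them. The members' median log2 difference for 6 h against untreated cells (0.04) moved by less than the spread between pairs under every setting. For 12 h against untreated cells (0.04) it was -0.048 with quantile normalization, 0.62 with centred arrays, 0.054 with the stricter filter, -0.098 with the mean over probe sets and -0.0135 with each probe set tested. It was 0.057 with the replicate block, 0.076 without the replicate 2 arrays (with and without the block) and 0.089 with array weights, and 0.027 to 0.11 with each array left out. For 12 h against 6 h (0.06) it was -0.044 with quantile normalization, 0.65 with centred arrays, -0.092 with the mean over probe sets, 0.00022 without the replicate 2 arrays (with and without the block), and 0.00022 to 0.064 with each array left out. A sign turned in 63, 78 and 52 of 602 member values per comparison. Where the main difference exceeded its SE, it turned for BNIP3 (0.30) and ALDOC (0.0497) at 12 h against untreated cells and for HK2 (0.25) and EGLN3 (0.0488) at 12 h against 6 h, all with centred arrays. PFKP at 12 h against untreated cells turned to -0.81 with the mean over probe sets. Centring and averaging by construction move the level of an array and add dimmer probe sets, and no other cause was tested. The fit without the replicate 2 arrays and with the block was chosen after seeing the data. Dim genes such as CA12 and SLC2A3 lie near the filter, where their differences are least certain.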
